A study of Mus musculus with 2 samples.

Results

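Histone genes were examined in mRNA-seq of mouse intestinal organoids, miniature epithelia grown from crypts in Matrigel. The set was every gene of the count table whose symbol follows the naming of the linker histone H1 and the core histones H2A, H2B, H3 and H4, and it held 72 of 19294 listed genes. Of these, 59 were replication-dependent genes, 8 were replacement histones, 3 were pseudogenes and H2bc1 was a testis-type H2B gene. H2afx, the gene of the DNA damage variant H2AX, was kept apart because its mRNA can be made in the manner of either class. The macroH2A genes and the centromeric variant Cenpa carry other names and were not members. Both libraries came from organoids of the genotype Lgr5-EGFP-IRES-creERT2, a knock-in reporter of Lgr5+ stem cells, kept in medium with EGF, Noggin and R-spondin. The control library was from untreated organoids, and the DSS library from organoids given dextran sulfate sodium, a polysaccharide that injures the epithelium. Each is labeled day 4. There was 1 library per condition, so no difference between the conditions was tested, and the DSS concentration behind the sequenced culture is not given in the sources used here.

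Replication-dependent histones package newly made DNA and are transcribed mainly in S phase, from clustered genes that mostly lack introns. Their mRNAs normally end in a conserved stem-loop, which the stem-loop binding protein holds, in place of a poly(A) tail. Replacement histones are made throughout the cell cycle from ordinary polyadenylated mRNAs, often with introns, and take over nucleosome positions outside replication. The mRNA kit used here selects poly(A) RNA, so reads of a replication-dependent gene come from the part of its RNA that carried a poly(A) stretch or passed the selection in another way. Some of these genes are known to yield polyadenylated transcripts in cells that have left the cell cycle.

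Stem-loops are shown for the matched gene with the most reads in each replication-dependent family, with its identically coding partner in H2A and H3, and for H2afx, because this element separates the classes at the sequence level. The motif, written on the coding strand as GGNNC, TTTT and NAGNGCC in a row, was searched after the stop codon of the GENCODE vM21 transcripts (GRCm38). Capitals mark its 16 bases, with up to 5 neighboring bases on each side.
H1f2: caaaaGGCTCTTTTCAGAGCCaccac
H2ac18: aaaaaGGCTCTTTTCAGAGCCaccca
H2ac19: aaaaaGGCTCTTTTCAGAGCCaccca
H2bc8: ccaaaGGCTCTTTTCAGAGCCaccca
H3c14: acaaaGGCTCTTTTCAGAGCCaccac
H3c15: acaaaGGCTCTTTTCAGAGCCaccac
H4c9: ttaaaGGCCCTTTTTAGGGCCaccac
H2afx: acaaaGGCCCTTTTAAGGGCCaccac
The capital bases lie at chr13:23739512-23739527 on the plus strand for H1f2, 24 bases after its stop codon. They lie at chr3:96246032-96246047 on the plus strand for H2ac18 and at chr3:96239784-96239799 on the minus strand for H2ac19, 58 bases after the stop codon of each. The H2bc8 motif lies at chr13:23571843-23571858 on the plus strand, and the H4c9 motif at chr13:22040966-22040981 on the minus strand. The H3c14 motif lies at chr3:96247327-96247342 on the plus strand, and that of H3c15 at chr3:96238485-96238500 on the minus strand. H2afx carries it at chr9:44335240-44335255 on the plus strand, 46 bases after its stop codon. All of these sites are in the untranslated 3′ part of the exon that holds the stop codon.

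The motif was present in 37 of 59 replication-dependent genes and in H2afx, and in 0 of 7 replacement histones with an annotated coding transcript. It was found in 3 of 5 H1 genes, 10 of 15 H2A genes, 9 of 16 H2B genes, 8 of 12 H3 genes and 7 of 11 H4 genes. A missing match says only that these letters are not in the annotated transcript, since many models end at the stop codon or shortly after it. Of the 37 matches, 24 had the letters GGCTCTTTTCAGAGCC, as in H1f2, while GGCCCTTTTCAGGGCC and GGCTCTTTTAAGAGCC had 5 each. H2bc4 and H2bc21 had no match, although their annotated transcripts continue for 742 and 2192 bases after the stop codon, and that of H2bc4 has 2 exons. The motif was followed by a poly(A) signal, AATAAA or ATTAAA, within the annotated transcript in 10 of 37 genes. H1f2 was among these, with its signal 443 bases after the stem-loop, whereas the models of H2ac18 and H2ac19 end 35 bases after it.

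Sequencing gave 65493032 counts in total for the control and 59746968 for DSS, and histone genes took 0.170% and 0.146% of them. Counts were scaled with TMM factors, which leave the median log2 ratio of DSS over control at -0.06 over 17235 genes with at least 10 counts in a library. Intervals are exact Clopper-Pearson 95% intervals, and they and all shares cover counting error only, not the variation between cultures. No listed gene has a count of 0 in either library, so genes at 0 in a library appear to be absent from the list. Of RefSeq genes that match the naming, 10 were not listed, 7 of them protein coding, and their counts are not known. Of the epithelial markers, Epcam, Cdh1 and Krt18 had log2 ratios of 0.03, -0.03 and 0.04, and Krt8 had 0.84 (0.83 to 0.85), with 0.40 for the sum of the list. Markers of single cell types are described with the S phase genes at the end.

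The main contrast was between the classes. Replication-dependent genes were higher in the DSS library as a sum, while replacement histones as a sum were nearly level. The summed replication-dependent reads were 3288 in the control library and 8394 after DSS, or 45.9 and 154 CPM (TMM-scaled counts set to a common library total). This was a log2 ratio of 1.74 (95% interval 1.68 to 1.80), or 3.34-fold. The summed replacement reads were 103585 and 76219, a log2 ratio of -0.05 (-0.07 to -0.04), and this sign depends on the scaling, since the value was 0.04 with upper quartile factors and -0.31 with total counts. The difference between the classes, 1.79 on the log2 scale, does not depend on scaling. Replication-dependent reads made up 3.08% (2.97 to 3.18) of both classes in the control and 9.92% (9.72 to 10.1) in the DSS library.

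**Figure D1:**
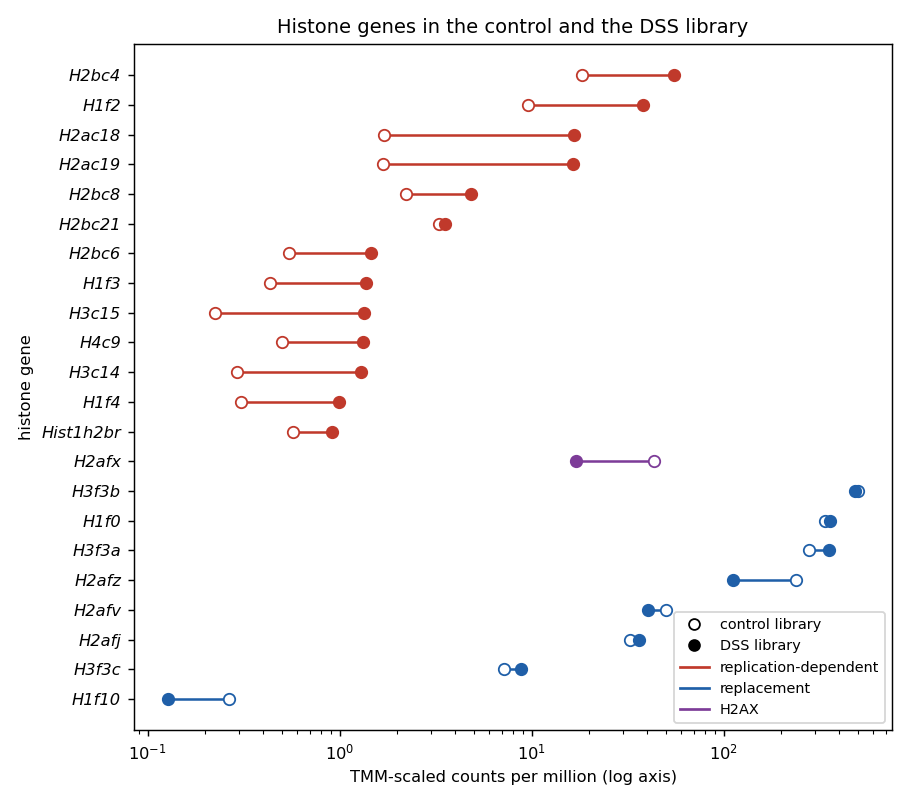
TMM-scaled CPM (log axis) of the 22 histone genes named by the rule for counts, in the control library (open circles) and the DSS library (filled circles), with 1 library per condition and lines joining the libraries. The 13 replication-dependent genes (red) are to the right in the DSS library, H2bc21 by the least (it turns to -0.16 on the log2 scale with total counts), whereas H2afx (purple) and H2afz are to the left. The 13 were chosen for at least 50 counts in a library. Some, such as H3c14 (21 counts in the control library and 71 after DSS), passed only through the DSS library, so their direction was fixed by this choice.

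Most single genes of the replication-dependent class had few reads. Of its 59 members, 38 had at least 10 counts in a library, 13 had at least 50 and 6 had at least 100. Of the 38, 22 had a log2 ratio of 1 or more, beside 19.3% of all genes past this line. Another 3 had a log2 ratio of -1 or less, beside 20.2% of all genes, and 13 lay between. The split of all genes past either line depends on scaling, with 48.9% of them higher under TMM, 37.1% under total counts and 53.7% under upper quartile factors. The median log2 ratio of the 38 was 1.15, but a gene could enter through the library in which it was high, and over all 59 members with no minimum count it was 0.75. The other 21 members had at most 9 counts and summed to 112 and 88 reads, a log2 ratio of 0.04 (-0.38 to 0.46), so no difference was detectable for them at this depth. Among the 25 members with at least 10 counts in both libraries, each ratio was above 0 with TMM factors, though the intervals of 10 of them held 0. This shared direction came with the filter. The 4 of the 38 members below 0 had under 10 counts after DSS and were left out by it. The filter also left out higher members with under 10 counts in the control library.

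The class sum rested on 4 genes, chosen after their values were seen, namely H1f2, H2bc4, H2ac18 and H2ac19. They held 68.1% of replication-dependent reads in the control library and 82.4% after DSS. Without them the class had 1050 reads in the control library and 1477 after DSS, a log2 ratio of 0.88 (0.77 to 1.0). The direction was then the same and the size smaller, and the share of both classes was 1.0% in the control library and 1.90% after DSS. If reads shared by H2ac18 and H2ac19 were counted for both, the class sum and the part held by these 4 genes are too high.

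**Figure D2:**
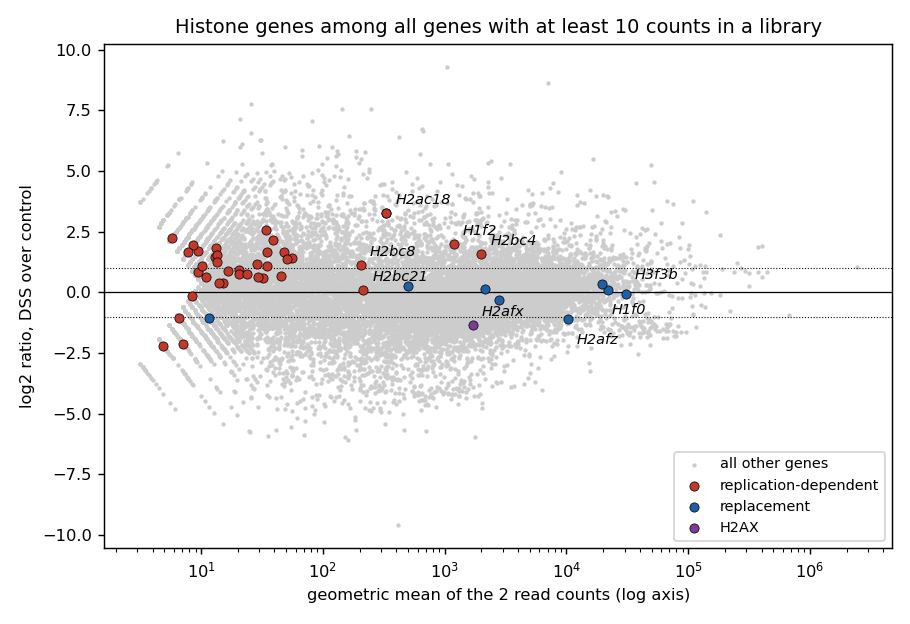
Log2 ratio of DSS over control (TMM-scaled) against the geometric mean of the read counts (log axis) for genes with at least 10 counts in a library, with histone genes in color over all other genes in grey and dotted lines at 1 and -1. H2ac18 (log2 3.28), H1f2 (1.98) and H2bc4 (1.60) lie above the line, and H2afz and H2afx below the lower line. Of the unlabeled red points, H2ac19 (3.29) lies beside H2ac18, and the others are members with few reads.

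Linker histones, which bind DNA where it enters and leaves the nucleosome, differed by class. The replication-dependent H1 genes summed to 760 reads in the control library and 2229 after DSS, a log2 ratio of 1.94 (1.82 to 2.06). H1f2 had 687 and 2076 counts, 9.60 and 38.0 CPM, a log2 ratio of 1.98 (1.86 to 2.11). It was thus 3.96-fold higher and supplied most reads of this group. H1f3 had 31 counts in the control library and 75 after DSS, a log2 ratio of 1.66 (1.04 to 2.32). H1f4 had 22 and 54 counts, a log2 ratio of 1.68 (0.94 to 2.47). H1f5 ran the other way with 12 and 2 counts, a log2 ratio of -2.20 (-5.40 to -0.03), and was named after its values were seen.

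The replacement linker histone H1f0, which is typical of differentiated cells, was level by comparison. It had 24229 counts in the control library and 19665 after DSS, 339 and 360 CPM, a log2 ratio of 0.09 (0.06 to 0.11) that became -0.17 with total counts. H1f10, a further linker variant, had 19 and 7 counts, a log2 ratio of -1.05 (-2.55 to 0.26), and its interval held 0. Replication-dependent genes supplied 3.04% of H1 reads in the control library and 10.2% after DSS.

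In the H2A family, which pairs with H2B at the outer face of the nucleosome, H2ac18 and H2ac19 had the largest log2 ratios of the replication-dependent genes with at least 10 counts in a library. H2ac18 had 122 counts in the control library and 907 after DSS, 1.70 and 16.6 CPM, a log2 ratio of 3.28 (3.01 to 3.57). H2ac19 had 121 and 902 counts, a log2 ratio of 3.29 (3.01 to 3.57). Their coding sequences are identical over all 390 bases, so the near-equal counts may be shared reads. How such reads were counted is not given. The sum of the pair was 243 and 1809 reads, a log2 ratio of 3.28 (3.09 to 3.48). If shared reads were counted for both genes, this sum holds them more than once and its interval is too narrow. The H2A sum and share given below would then be too high.
The other 13 replication-dependent H2A genes together had 87 reads in the control library and 78 after DSS, a log2 ratio of 0.23 (-0.23 to 0.69). Thus the family value of 2.90 (2.73 to 3.08), from 330 and 1887 reads, came from this pair. H2ac10, with 17 and 3 counts, was lower at -2.11 (-4.53 to -0.32) and was named after its values were seen. Replication-dependent genes supplied 1.42% of H2A reads in the control library and 15.4% after DSS, with H2afx left out.

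H3c14 and H3c15, identical over their 408 coding bases, follow H2ac18 and H2ac19 on the same strand. H3c14 starts 602 bases after the annotated end of H2ac18, and H3c15 starts 621 bases after that of H2ac19. H3c14 had 21 counts in the control library and 71 after DSS, a log2 ratio of 2.15 (1.43 to 2.92). H3c15 had 16 and 73 counts, a log2 ratio of 2.58 (1.78 to 3.46). The H3 pair together had 37 and 144 reads, a log2 ratio of 2.35 (1.82 to 2.91). Reads of both pairs of this duplicated segment on chromosome 3 were therefore higher in the DSS library. Within each pair the reads may be shared, so the 4 genes are not separate results. If shared reads were counted for both H3 genes, the sum of the H3 pair holds them more than once and its interval is too narrow. The H3 sum and share given below would then be too high.

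H2B genes supplied the most replication-dependent reads in both libraries, 1958 in the control library and 3858 after DSS, a log2 ratio of 1.37 (1.29 to 1.45). H2bc4 was the most counted replication-dependent gene, with 1308 and 3032 counts, 18.3 and 55.5 CPM, a log2 ratio of 1.60 (1.51 to 1.70). H2bc8 had 159 and 263 counts, a log2 ratio of 1.11 (0.83 to 1.41). H2bc21 differed from them, with 237 counts in the control library and 194 after DSS and a log2 ratio of 0.10 (-0.18 to 0.38). Its interval held 0, its sign turned to -0.16 with total counts, and the interval lay below those of H2bc4 and H2bc8. H2bc21 was placed in the class by hand, as were all members. Like H2bc4, it had no stem-loop match, here over 2192 annotated bases after its stop codon. The class was not recomputed without H2bc21. H2bc6 had 39 and 80 counts, a log2 ratio of 1.43 (0.86 to 2.02), and Hist1h2br had 41 and 50, a log2 ratio of 0.67 (0.05 to 1.31). Without H2bc4 the H2B sum was 650 and 826 reads, a log2 ratio of 0.73 (0.58 to 0.88).

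Many H2A and H2B genes share a promoter region and are read in opposite directions. In 11 such pairs, whose annotated starts lie 176 to 302 bases apart, the reads were uneven. H2B exceeded H2A in reads per kilobase of annotated transcript in both libraries in 10 of 11 pairs, the exception being H2ac13 and H2bc13. Over the pairs, H2A had 65 reads in the control library and 72 after DSS, and H2B had 1856 and 3694. Of these H2B reads, H2bc4 alone supplied 1308 and 3032. Most of the H2A partners had under 10 counts in both libraries, so single pairs rest on few reads. H2bc4 had 1131 reads per kilobase in the control library and 2623 after DSS. H2ac6, whose start lies 251 bases away, had 2.01 and 6.04 from 5 and 15 counts. The same asymmetry held for H2bc21 and its partner H2ac20, which had 6 and 15 counts. The partner of H2bc8, H2ac8, had 3 counts in the control library and 11 after DSS.

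The other families of the nucleosome core had fewer reads. The replication-dependent H3 genes summed to 101 and 215 reads, a log2 ratio of 1.48 (1.13 to 1.83), and were 0.179% of H3 reads in the control library and 0.463% after DSS. The H4 genes, which have no replacement gene in this set, summed to 139 and 205 reads, a log2 ratio of 0.95 (0.63 to 1.27). H4c9 had 36 and 72 counts, a log2 ratio of 1.39 (0.79 to 2.01). H4c11, the member at -1.07 (-3.18 to 0.68), had 11 and 4 counts and was named after its values were seen. The testis-type H2bc1 had 1 and 4 counts.

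**Figure D3:**
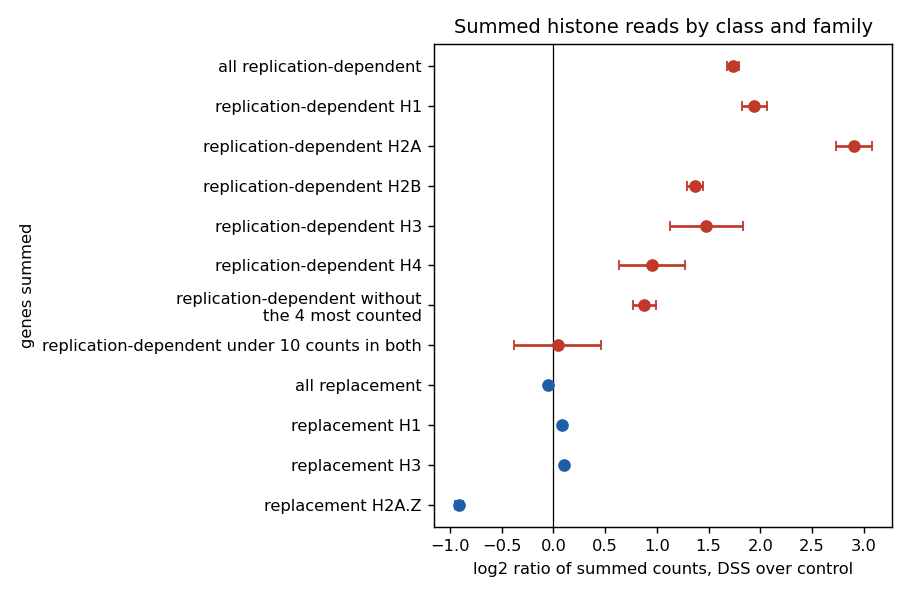
Log2 ratio of summed counts, DSS over control (TMM-scaled), for classes and families of histone genes, with replication-dependent sums in red and replacement sums in blue, and bars for exact 95% counting intervals. The replication-dependent families lie between 0.95 (H4) and 2.90 (H2A), the class without its 4 most counted genes lies at 0.88, and H2A.Z lies at -0.91.

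Among the replacement histones of H3, the H3.3 genes H3f3a and H3f3b encode the same protein and were close to level. H3f3b had 35866 counts in the control library and 26296 after DSS, a log2 ratio of -0.06 (-0.08 to -0.04), which was 0.03 with upper quartile factors. H3f3a had 20027 and 19424 counts, 280 and 355 CPM, a log2 ratio of 0.34 (0.32 to 0.37). H3f3a thereby supplied 35.8% of the reads of the pair in the control library and 42.5% after DSS. H3f3c had 517 and 482 counts, a log2 ratio of 0.29 (0.11 to 0.47). It was the replacement gene with no matched coding transcript, so its identity to H3f3a was not computed. Whether H3f3c holds reads of H3f3a is not known. The pseudogenes H3f3a-ps1 (758 and 776 counts) and H3f3a-ps2 (789 and 762) may hold reads of H3f3a, and with them the H3.3 sum was 0.11 on the log2 scale.

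The replacement H2A variants differed from these. H2afz and H2afv encode H2A.Z, a variant at promoters that is also abundant in dividing cells. H2afz had 16994 counts in the control library and 6156 after DSS, 237 and 113 CPM, a log2 ratio of -1.08 (-1.12 to -1.03). H2afv had 3606 and 2204 counts, a log2 ratio of -0.32 (-0.40 to -0.24). Both were lower in the DSS library, H2afz by more, and its share of the H2A.Z reads was 82.5% in the control library and 73.6% after DSS. With upper quartile factors H2afz stood at -0.99, just inside the line of -1. H2afj, a replication-independent H2A variant, had 2327 and 1985 counts, a log2 ratio of 0.16 (0.07 to 0.25) that was -0.10 with total counts.

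H2afx had 3116 counts in the control library and 935 after DSS, 43.5 and 17.1 CPM, a log2 ratio of -1.35 (-1.46 to -1.24). It carries the stem-loop shown above, followed by a poly(A) signal 787 bases further on, and it was lower in the DSS library, whereas the 7 replication-dependent genes whose stem-loops are shown were higher. If H2afx was counted as replication-dependent, the class sum was 0.93 instead of 1.74. Hist1h2al, which RefSeq names as a pseudogene of H2A, had 8 counts in the control library and 77 after DSS, a log2 ratio of 3.66 (2.61 to 4.92).

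The reads of replication-dependent genes were also split by their annotated 3′ ends. The 10 genes with a poly(A) signal after the stem-loop had 870 reads in the control library and 2457 after DSS, a log2 ratio of 1.89 (1.77 to 2.0). The 27 genes with a stem-loop and no such signal had 668 and 2480 reads, a log2 ratio of 2.28 (2.16 to 2.41). The 22 genes with no matched stem-loop had 1750 and 3457 reads, a log2 ratio of 1.37 (1.29 to 1.45). Reads were thus higher in the DSS library in each of these groups, and each sum was led by few genes, H1f2 in the first group, H2ac18 and H2ac19 in the next and H2bc4 in the last. Without H1f2, the 9 remaining genes with a signal had 183 and 381 reads, a log2 ratio of 1.45 (1.19 to 1.71). Without H2ac18 and H2ac19, the 25 remaining genes with a stem-loop and no signal had 425 and 671 reads, a log2 ratio of 1.05 (0.87 to 1.23). Without H2bc4, the 21 remaining genes with no match had 442 and 425 reads, a log2 ratio of 0.33 (0.14 to 0.53). Raw reads of these 21 genes were thus lower after DSS. Total counts shift ratios by -0.26, which is more than the lower limit of 0.14, so a difference is not clear under that scaling. These values describe annotation models and not where the sequenced RNAs ended.

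Promoters of H1f2, H2ac18 and H2bc8 are shown as those of the most counted replication-dependent H1, H2A and H2B genes with an entry in the RefSeq promoter table. They cover 250 bases before to 50 after the annotated start (GRCm38.p6). Capitals mark CCAAT, the octamer ATTTGCAT and TATAAA on either strand. The regions are chr13:23738557-23738856, chr3:96245247-96245546 and chr13:23571150-23571449, all on the plus strand.
H1f2: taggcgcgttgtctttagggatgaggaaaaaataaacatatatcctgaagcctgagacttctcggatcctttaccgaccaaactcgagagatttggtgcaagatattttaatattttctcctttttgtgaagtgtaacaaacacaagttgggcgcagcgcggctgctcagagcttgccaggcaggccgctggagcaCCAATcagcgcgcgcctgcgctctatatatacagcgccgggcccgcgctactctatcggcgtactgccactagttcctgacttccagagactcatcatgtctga
H2ac18: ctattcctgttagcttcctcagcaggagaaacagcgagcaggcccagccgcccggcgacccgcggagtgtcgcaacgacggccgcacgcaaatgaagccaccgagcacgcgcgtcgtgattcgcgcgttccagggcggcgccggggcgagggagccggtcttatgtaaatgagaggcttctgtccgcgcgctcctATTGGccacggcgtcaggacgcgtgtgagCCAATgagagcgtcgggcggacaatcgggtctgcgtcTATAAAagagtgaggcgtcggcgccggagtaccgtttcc
H2bc8: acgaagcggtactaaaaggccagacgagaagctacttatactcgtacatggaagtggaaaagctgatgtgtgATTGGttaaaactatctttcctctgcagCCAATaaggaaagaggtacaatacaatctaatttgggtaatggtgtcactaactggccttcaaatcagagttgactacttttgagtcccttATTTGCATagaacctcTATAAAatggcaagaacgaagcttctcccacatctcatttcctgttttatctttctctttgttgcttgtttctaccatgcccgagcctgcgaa
CCAAT was in 47 of 54 replication-dependent promoters (87.0%), in 5 of 8 replacement promoters and in 37.9% of 27025 promoters of the table. The H4 genes were the exception, with CCAAT in 3 of 10. TATAAA was in 31 of 54 replication-dependent promoters (57.4%), in 1 of 8 replacement promoters and in 14.2% of all. The octamer was in 5 of 15 H2A and 5 of 14 H2B promoters, in 0 of the H1, H3 and H4 promoters of this class, and in 1.75% of all. The promoters of H2ac18 and H2ac19 share an unbroken run of 219 of their 300 bases. These matches describe letters in a window and not bound sites.

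Genes that make, carry and deposit histones were listed as a group of 35 for comparison. In contrast to the replication-dependent genes, 20 of 35 stood at -1 or below on the log2 scale, beside 20.2% of all genes, and 0 at 1 or above, beside 19.3%, with a median of -1.24. With total counts, 25 of 35 stood at -1 or below. Slbp, the protein that binds the stem-loop shown above, had 4769 counts in the control library and 1540 after DSS (log2 -1.24). Npat, the coactivator of histone gene transcription, had 1691 and 561 (-1.20). Casp8ap2, which acts in cleavage of histone pre-mRNA, had 1381 and 570 (-0.89). These 3 genes were lower in the library in which the reads of replication-dependent genes were higher.

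Among the chaperones that act at replication forks, most were lower by more. Chaf1b, a subunit of CAF-1, had 1572 counts in the control library and 88 after DSS (log2 -3.77), and Chaf1a of the same complex had 2710 and 610 (-1.76). Asf1b had 1673 and 79 (-4.02), whereas its paralog Asf1a had 839 and 363 (-0.82). Nasp, a further H3-H4 chaperone, had 7773 and 1454 (-2.03). The listed partners of H3.3 ran from -0.79 to 0.41. Hira had 4519 and 2002 counts (-0.79), Daxx had 1655 and 1143 (-0.15) and Atrx had 8672 and 5611 (-0.24), while Ubn1 had 4439 and 3308 (-0.04) and Cabin1 had 6663 and 6786 (0.41). At the centromere, Cenpa had 3791 and 194 counts (-3.90), and its chaperone Hjurp had 28390 and 13367 (-0.70). Anp32e, a chaperone that removes H2A.Z, had 10456 and 2490 (-1.68). The listed genes of H2A.Z deposition were closer to 0, with 7548 and 6266 counts for Srcap (0.12) and 6602 and 4146 for Ep400 (-0.28).

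**Figure D4:**
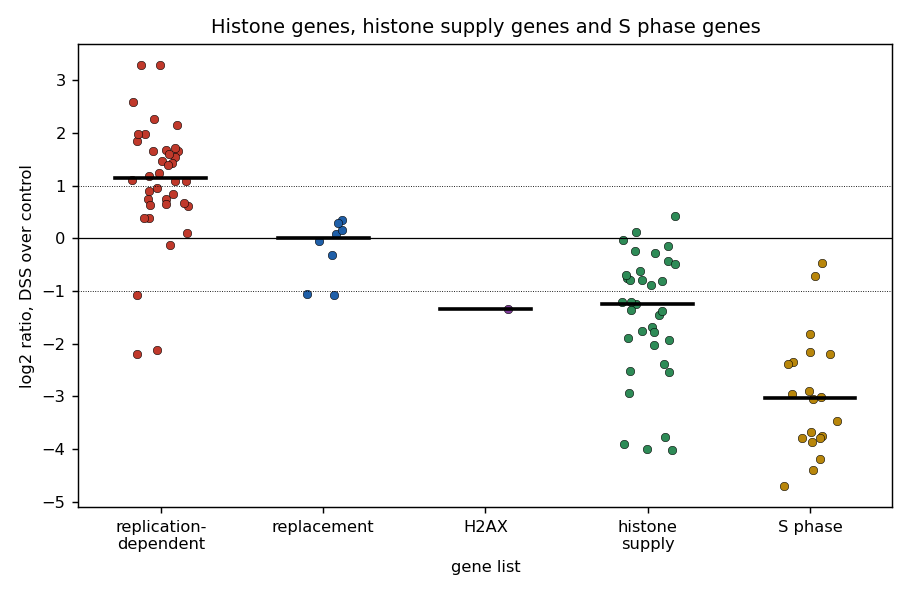
Log2 ratio of DSS over control (TMM-scaled) for genes with at least 10 counts in a library in the replication-dependent, replacement and H2AX classes and in the histone supply and S phase lists, with 1 point per gene, the median as a bar and dotted lines at 1 and -1. The median is 1.15 for replication-dependent genes with this minimum (0.75 over all 59), 0.01 for replacement genes, -1.24 for histone supply genes and -3.03 for S phase genes.

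S phase genes ran opposite to the replication-dependent histones. Of 20 listed genes, 18 stood at -1 or below, beside 20.2% of all genes, and 0 were above 0, with a median of -3.03. Rrm1, a subunit of ribonucleotide reductase, had 10794 counts in the control library and 647 after DSS (log2 -3.67). Mcm6, part of the replicative helicase, had 10039 and 950 (-3.01). Pcna, the sliding clamp, had 20088 and 9370 (-0.71).

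Cell type markers also differed between the libraries. The stem cell markers Lgr5, Olfm4, Ascl2 and Smoc2 were at -1 or less in 4 of 4, and their sum was 702 CPM in the control library and 124 after DSS. Sums of enterocyte markers (1019 and 8487 CPM), goblet markers (697 and 8877) and enteroendocrine markers (686 and 3451) were higher in the DSS library, with 4 of 4, 4 of 4 and 3 of 3 genes at 1 or more. Paneth markers had 494 and 241 CPM, with 3 of 4 at -1 or less. The organoids are labeled as intestinal stem cells, and the markers of that label were present in both libraries and lower in the DSS library. Control and DSS counts were 17661 and 5670 for Smoc2, 18849 and 1048 for Lgr5, 596 and 23 for Ascl2, and 13109 and 13 for Olfm4. Of immune markers 2 of 4 were listed (143 and 78 reads in all, with Ptprc and Cd3e not listed), of mesenchymal markers 2 of 4 (32 and 31 reads), and of red cell markers 0 of 3. The endothelial marker Pecam1 had 12 and 55 counts. The part of these shifts in the histone results was not tested. In RNA from whole cultures, fewer cells of a type and less RNA per cell cannot be told apart.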

How the data were processed

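RNA was sequenced from 1 control and 1 DSS-treated organoid culture after capture of poly(A) RNA with a stranded mRNA kit. The authors deposited whole-number read counts for each gene, not normalized. The single-sample tables carry FPKM in their names and yet hold these counts, with 0 differing values, and were not used. The submitters' processing notes name HISAT2 and StringTie, and the genome build, strand setting and handling of reads shared by near-identical genes are not given in the sources used here. Columns without a sample numbered 0.

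The libraries held 65493032 (control) and 59746968 (DSS) counts. Counts were scaled with TMM factors from edgeR 4.0.16 in R 4.3.3, and the log2 ratio of DSS over control was given with an exact Clopper-Pearson 95% interval from both counts. A log2 ratio of 1 or -1 (2-fold) among genes with at least 10 counts in a library was used to count genes. No test could be made from 1 library per condition. Genes were classed by hand as replication-dependent, replacement, H2AX, pseudogene or testis type. Hist1h2al was moved to the pseudogenes after its values were seen. Members and lists were chosen with earlier results of these data known.

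Named genes were replacement histones and H2afx with at least 10 counts, replication-dependent or testis-type genes with at least 50 counts in a library (at most 20), 14 histone supply genes and the 3 S phase genes with the most counts. H2bc1, the pseudogenes, the partners in divergent pairs, Ubn1, Cabin1, Srcap, Ep400 and the members at a ratio of -1 or less were named outside this rule. Gene symbols were matched to RefSeq for 72 of 72 members, 13 under a newer symbol. Stem-loops came from GENCODE vM21 transcripts and promoters from RefSeq. Ratios and intervals were tested on simulated data. The ratios were recomputed with upper quartile factors, with total counts alone, with size factors from DESeq2 1.42.0, with a prior count of 2, with other count minimums, with H2afx as replication-dependent and with omission of the most counted genes. Those added after the data were seen were Hist1h2al as replication-dependent, omission of 4 genes from the class and from the groups by annotated end, and the H3f3a pseudogenes added to the replacement sum. Python 3.11.15, numpy 2.4.6, scipy 1.17.1, pandas 2.3.3 and matplotlib 3.10.9 were used.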

Additional observations from a re-analysis of the deposited data

How the results depend on the processing

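The replication-dependent sum was above 0 under each alternative run. Its log2 ratio of 1.74 was 1.48 with total counts, 1.83 with upper quartile factors, 0.93 with H2afx in the class, 1.83 without H2bc4 and 0.88 without H1f2, H2bc4, H2ac18 and H2ac19. The replacement sum of -0.05 was -0.31 with total counts and 0.036 with upper quartile factors, so its sign is not settled by these data. The share of replication-dependent reads in the control and DSS libraries was 2.87% and 9.66% with at least 10 counts in both, 5.82% and 10.9% with H2afx, 2.84% and 9.70% without the most counted member of each class, and 1.0% and 1.90% without the 4 genes. Histone members at 1 or more numbered 23, and 18 with total counts, under which H2bc8 went from 1.11 to 0.86. Members at -1 or less numbered 6, and 3 with upper quartile factors. Of the 15 single genes followed, 4 changed sign, H1f0 (-0.17), H2afj (-0.10) and H2bc21 (-0.16, its interval already held 0) with total counts and H3f3b (0.031) with upper quartile factors. The median of the replacement genes was -0.24 with total counts. That of the replication-dependent genes was 0.89 with total counts and 0.75 with no minimum count. Total counts shift the median of all genes by -0.26 and upper quartile factors by 0.09, which is the size of these moves. Numbers of genes have no interval and were compared by a fold limit, under which 23 and 18 counted as unmoved. Values moved by less than their counting interval, range or limit in 50 comparisons of class and list values and 44 of single genes. Among these are H2bc21 and both medians named above. The replacement median was 0.01 with TMM factors, so its sign changed as well. Another 16 values, of single genes and of the groups by annotated end, moved by more without a change of sign. Of class and list values, 15 moved by more with the same sign, and 1, the replacement sum with upper quartile factors, changed sign. No paired analysis was possible because each condition has 1 library. That number limits all values here, and a difference between cultures cannot be told apart from the treatment.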
